A study of Mus musculus with 6 samples.

Results

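Pou5f1 encodes Oct4, the POU-domain transcription factor that holds embryonic stem (ES) cells in the pluripotent state, and the binding of phosphorylated Smad2 (pSmad2) was followed over its locus. The gene was chosen by its name and position, with earlier results of these data known. It is 1 of 22342 protein-coding genes of the annotation on chromosomes 1 to 19 and X. In the mm9 mouse assembly the gene lies at chr17:35642982-35647721 on the plus strand, with 5 exons. The locus described here takes in 50 kb on each side and holds parts of 6 coding genes, of which Tcf19 is the nearest neighbour.

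pSmad2 chromatin immunoprecipitation and sequencing (ChIP-Seq) was carried out in E14 TG2A cells, a mouse ES cell line, with an antibody against Smad2 phosphorylated at its C-terminal serines. All cells, controls included, were first kept for 6 hours in 10 µM SB-431542 (SB) in chemically defined KSR medium, and then for 18 hours in 25 ng/ml Activin, in the DMSO carrier at a dilution of 1/5000, or in 10 µM SB. Each treatment had 1 ChIP library and 1 library of input chromatin, 6 in all, with 9757735 to 13148559 tags per ChIP library and 10516699 to 12708225 per input. Because there was 1 library per condition, every interval and p below compares libraries and covers counting error only, not the spread between cultures, and copies made by PCR are not independent molecules. Tags that repeated the position and strand of another made up 19.9% to 24.6% of the ChIP libraries and 5.64% to 6.94% of the inputs. The files hold DNA tags and no expression, so the identity of the cells was not checked against markers.

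Activin and Nodal bind serine/threonine kinase receptors that phosphorylate Smad2 at its C-terminus. pSmad2 then enters the nucleus with Smad4, in complexes that bind DNA at CAGA-type elements, usually beside partner factors such as Foxh1. SB blocks the receptor kinase and so the phosphorylation of Smad2. In ES cells transcription of Pou5f1 is known to depend on a distal enhancer, which is active in the naive state, on a proximal enhancer, which is active in the epiblast, and on a promoter without a TATA box. The windows used here follow that order by distance to the start site. The distal enhancer window ran from 2600 to 1600 bp upstream (chr17:35640382-35641381), the proximal enhancer window from 1600 to 600 bp upstream, and the promoter window from 600 bp upstream to 400 bp downstream. The gene body was the rest of the gene.

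3 stretches of 300 bases of the upstream region are shown, placed by the Activin ChIP or by the start site. The highest points of the other ChIP libraries did not all fall inside them. The first is centred on the highest point of the Activin ChIP in the distal enhancer window (chr17:35640804-35641103), the second on that in the proximal enhancer window (chr17:35641656-35641955), and the third ends at the base before the start site (chr17:35642682-35642981). They are given on the plus strand of NCBIM37, the sequence of mm9, 5′ to 3′, with the Smad-type letters CAGA or CAGAC and their reverse complements TCTG or GTCTG in capitals.
Distal enhancer: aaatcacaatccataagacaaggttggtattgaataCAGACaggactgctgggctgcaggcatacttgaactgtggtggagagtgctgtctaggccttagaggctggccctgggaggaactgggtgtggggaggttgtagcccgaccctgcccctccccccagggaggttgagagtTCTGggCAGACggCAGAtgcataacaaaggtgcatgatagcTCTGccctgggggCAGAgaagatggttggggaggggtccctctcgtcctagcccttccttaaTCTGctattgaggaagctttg
Proximal enhancer: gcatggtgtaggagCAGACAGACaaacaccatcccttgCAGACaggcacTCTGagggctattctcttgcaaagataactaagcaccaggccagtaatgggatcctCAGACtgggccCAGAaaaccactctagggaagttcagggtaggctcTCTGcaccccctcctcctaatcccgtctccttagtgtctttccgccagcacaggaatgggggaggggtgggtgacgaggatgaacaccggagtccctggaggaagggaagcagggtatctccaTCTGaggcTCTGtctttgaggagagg
Promoter: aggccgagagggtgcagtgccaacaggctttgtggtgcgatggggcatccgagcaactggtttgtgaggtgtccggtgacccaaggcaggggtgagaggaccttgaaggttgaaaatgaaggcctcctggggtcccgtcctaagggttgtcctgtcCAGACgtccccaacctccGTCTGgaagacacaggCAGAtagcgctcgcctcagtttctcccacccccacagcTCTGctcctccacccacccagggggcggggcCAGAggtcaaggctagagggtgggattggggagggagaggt

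The distal enhancer was the only one of the 4 windows in which a difference between ChIP libraries was called. Scaled to a library of 10000000 tags, the Activin ChIP held 45.6 there, the DMSO ChIP 44.3 and the SB ChIP 19.5, while the inputs held 14.7, 17.3 and 16.2. pSmad2 tags in the proximal enhancer, in the promoter and over the gene body did not pass the test between any pair of treatments. SB was above its input in the other windows and was not called above it in the distal enhancer.

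As raw tags, the distal enhancer window held 60 in Activin ChIP, 57 in DMSO ChIP and 19 in SB ChIP, against 17, 22 and 17 in the inputs of the same treatments. Activin over DMSO was 1.03 (95% Clopper-Pearson interval 0.706 to 1.51, adjusted p = 1 by the two-sided exact binomial test), so a difference was not detectable at this depth. SB over DMSO was 0.44 (0.247 to 0.751) with an exact binomial adjusted p of 0.0444. Activin over SB was 2.34 (1.38 to 4.16) with an exact binomial adjusted p of 0.0234. Benjamini-Hochberg adjustment ran over the windows of all coding genes, of which 1.52% were called in Activin against DMSO, 3.84% in SB against DMSO and 5.47% in Activin against SB. Of the 12 comparisons at Pou5f1, 2 were called.

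The call of SB against DMSO was marginal: the ratio stayed below 1 under all 8 alternatives tried, from 0.394 to 0.587, and the adjusted p was above 0.05 in every one, from 0.0535 with totals of tags outside enriched tiles to 0.834 with each ChIP divided by its input. Activin against SB kept its call in 6 of 8 alternatives. It lost it with windows 200 bp further downstream (1.79, adjusted p = 0.129 by the exact binomial test) and with each ChIP divided by its input (2.57, adjusted p = 0.738 by the exact conditional test).

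**Figure D1:**
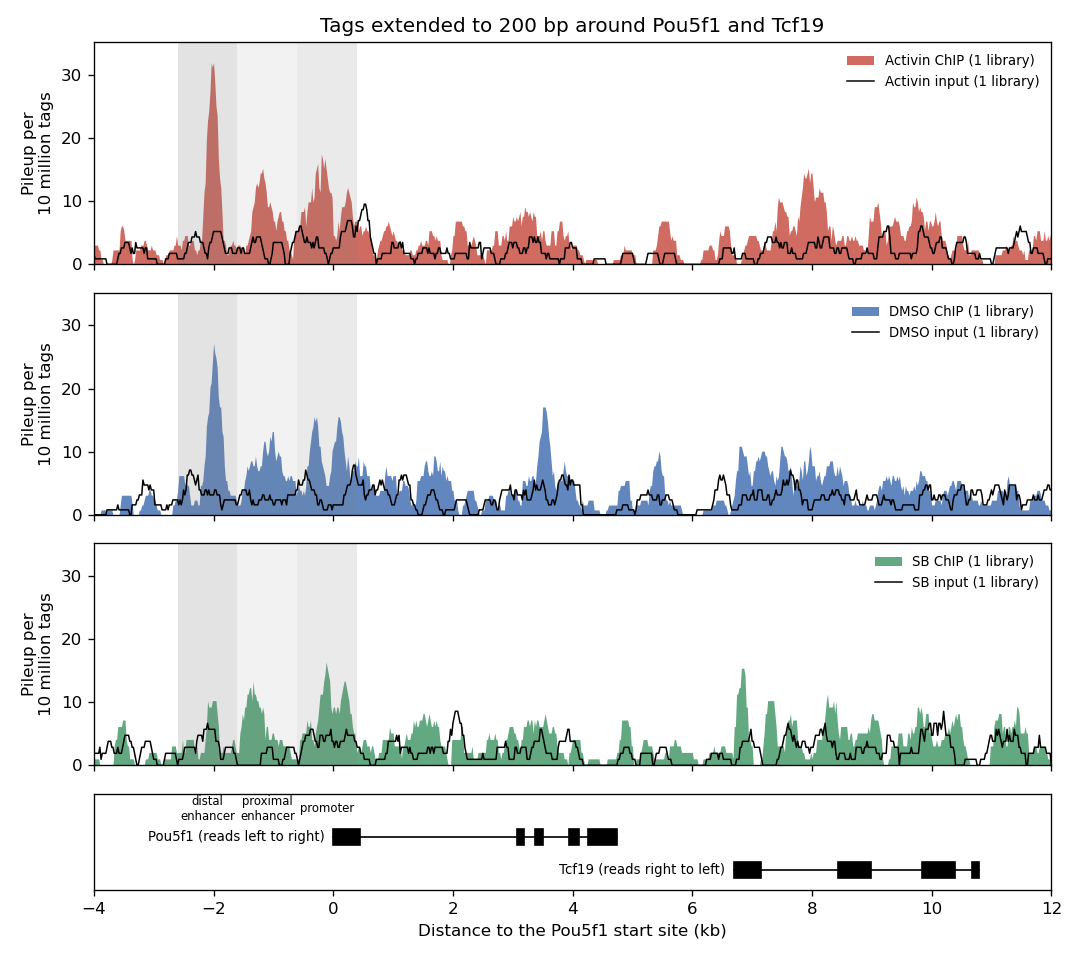
Tags extended to 200 bp and scaled to 10000000 tags of the library, plotted by distance to the Pou5f1 start site in kb, with ChIP filled and the input of the same treatment as a black line. Grey bands mark the distal enhancer, proximal enhancer and promoter windows, and black boxes mark exons. The tallest point lies about 2 kb upstream at 32.7 in Activin and 27.2 in DMSO and reaches 11.3 there in SB.

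The distal enhancer signal was a single narrow peak. With tags extended to 200 bp, Activin ChIP rose to 43 overlapping tags at 2029 bp upstream of the start site, DMSO ChIP to 35 at 2000 bp, and SB ChIP to 11 at 2028 bp. The highest values of the inputs in the same window were 6, 9 and 7. In Activin and DMSO this was the highest point of the whole locus. In SB the highest point of the locus was instead in the promoter, with 17 tags at 110 bp upstream. With tags extended to 100 bp, the SB maximum lay in Tcf19, with 12 tags at 6852 bp downstream against 11 in the promoter.

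In 100 bp bins, the bin from 2100 to 2000 bp upstream held 25 Activin tags, 16 DMSO tags and 8 SB tags, and the next bin towards the gene held 17, 19 and 2. These 2 bins were picked out after their values were seen and are given as a description. Together they took 42 of the 60 Activin tags, 35 of the 57 DMSO tags and 10 of the 19 SB tags, against 6, 4 and 6 in the inputs. The other 800 bp of the window held 18, 22 and 9 ChIP tags, which was 1.44 (0.643 to 3.37), 1.21 (0.617 to 2.39) and 0.882 (0.323 to 2.34) times the input. Each treatment's interval there included the level of its input. Taking out the highest bins lowers the rest, and the tags were few, so this too is a description.

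On the strands, Activin tags of the window were divided as 30 plus and 30 minus, DMSO tags as 25 and 30, and SB tags as 5 and 16. The totals differ slightly from those above because strands were counted by the tags' own 5′ ends. In Activin the median 5′ end of the minus tags lay 251.5 bp downstream of that of the plus tags. In DMSO it lay 117 bp and in SB 95 bp downstream, the last on few tags. After keeping 1 tag per position and strand, the window held 50, 40 and 14 tags, with the treatments in the same order.

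The amplicon that the study designed for ChIP PCR at Oct4 lies in this peak. Its primers are shown to place it, and both matched the assembly exactly.
Forward primer: catacttgaactgtggtggagagtg
Reverse primer: tccccacacccagttcctc
The product of 72 bp (chr17:35640864-35640935) runs from 2118 to 2047 bp upstream, and so belongs to the distal enhancer and not to the promoter window. At its middle 31 extended tags of Activin, 21 of DMSO and 9 of SB overlapped, and 3, 5 and 6 in the inputs.

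In the distal enhancer window CAGA occurred 17 times on both strands together, and 23.9% of coding genes had as many in the window at the same distance. CAGAC, the stronger form of the Smad element, occurred 5 times, and 11.0% of genes had as many. 1 of the 5 lay at 1996 bp upstream, where 43 Activin, 34 DMSO and 10 SB tags overlapped, and in the distal sequence above it is the CAGAC that follows TCTGgg. The other 4 lay from 2463 to 2142 bp upstream under at most 17 Activin tags. The AP-1 letters TGANTCA occurred 2 times in the distal enhancer window (4.34% of genes had as many). The Foxh1 letters AATCCACA and AATNCACA, the Smad letters GGCGC and the octamer ATGCAAAT had no match in this window, which says only that these letters were not in it.

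Of the ChIP tags of all 4 windows together, the distal enhancer held 21.9% in Activin (60 tags, with 214 in the other 3 windows), 19.8% in DMSO (57 and 231) and 11.4% in SB (19 and 147). In the inputs the distal share was 16.2% to 18.1%. These shares were looked up after the values were seen and are given as a description, with no test of the distal enhancer against the other windows.

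**Figure D2:**
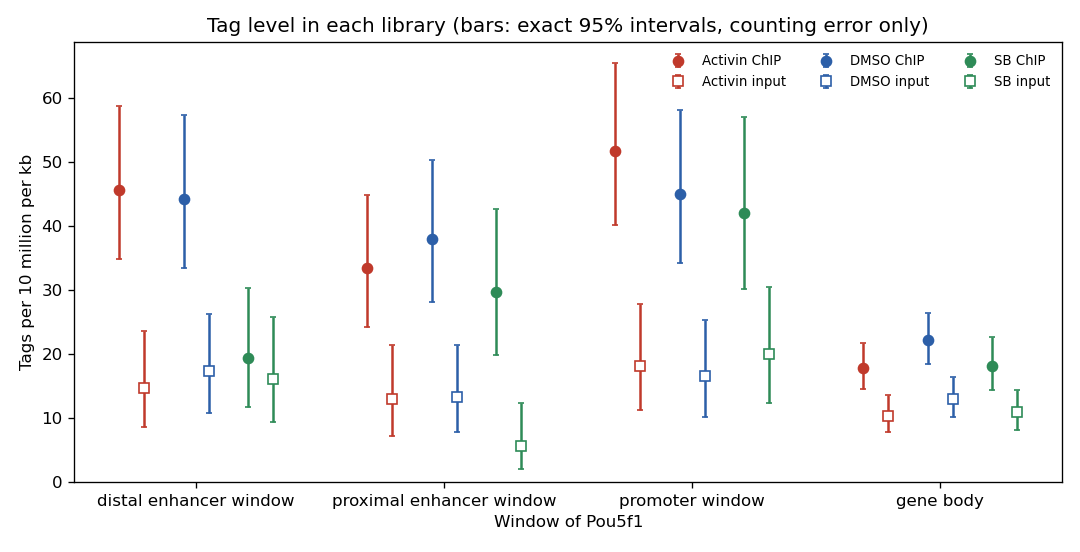
Tags per 10000000 of the library and per kb of window (vertical axis) in the 4 windows of Pou5f1 for the 3 ChIP (filled circles) and 3 input libraries (open squares), 1 library each, with exact 95% Poisson intervals. In the distal enhancer SB ChIP (19.5) lies beside its input (16.2), whereas Activin (45.6) and DMSO (44.3) lie above theirs.

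The proximal enhancer held pSmad2 tags above the input in all 3 treatments. Activin had 44 tags in the window, DMSO 49 and SB 29, against 15, 17 and 6 in the inputs. Scaled to 10000000 tags these were 33.5, 38.04 and 29.7, with overlapping intervals. Activin over DMSO was 0.88 (0.572 to 1.35), SB over DMSO 0.781 (0.476 to 1.26) and Activin over SB 1.13 (0.689 to 1.87), and none was called (exact binomial adjusted p of 0.672 to 0.906).

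Rather than a single peak, the proximal enhancer tags formed a broad rise whose highest point moved between libraries. It lay at 1177 bp upstream in Activin with 22 overlapping tags, at 1017 bp in DMSO with 18, and at 1342 bp in SB with 14. The inputs reached at most 6. The window holds 4 CAGAC, all on the plus strand and all between 1312 and 1217 bp upstream, in the first part of the proximal sequence above, where the first and second overlap by a base. Of all coding genes, 21.9% had as many in the same window. Over the 4 the ChIP pileup was 14 to 19 tags in Activin, 10 to 11 in DMSO and 9 to 11 in SB.

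In the promoter window the tags numbered 68 for Activin, 58 for DMSO and 41 for SB, and 21 for each input. Scaled to 10000000 tags it had 51.7, 45.0 and 42.0, the highest level per kb of the 4 windows in every ChIP library, although its interval overlapped those of both enhancers in each library. Activin over DMSO was 1.15 (0.797 to 1.66), SB over DMSO 0.933 (0.61 to 1.42) and Activin over SB 1.23 (0.823 to 1.86), with exact binomial adjusted p of 0.692 to 0.971. The highest points were 23, 21 and 17 overlapping tags at 194, 323 and 110 bp upstream.

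A pair of CAGAC elements on opposite strands, 18 bp apart, lay at 144 and 126 bp upstream, in the middle of the promoter sequence above. Over the first there were 22 Activin, 8 DMSO and 14 SB tags, and over the second 21, 7 and 16. In DMSO these elements lay between 2 rises, with 10 and 9 tags in the bins from 400 to 200 bp upstream and 9 and 11 in the first 200 bp of exon 1. The other CAGAC of the window, at 82 bp downstream of the start, had 7 Activin, 20 DMSO and 8 SB tags. The order of the treatments thus changed within 300 bp, on few tags each, and no test was made at this scale.

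Base composition moves with the comparison in the promoter. The window has 60.1% GC, against 50.3% in the distal and 56.7% in the proximal enhancer, and SB libraries held relatively more of their tags in GC-rich DNA. Over the promoter windows of all coding genes the median log2 SB over DMSO was 0.40, whereas over the distal windows it was -0.04. After scaling by GC content, SB over DMSO at the Pou5f1 promoter was 0.683 and Activin over SB 1.68, still not called (exact binomial adjusted p of 0.453 and 0.158). The distal ratios were 0.41 and 2.43 after the same scaling.

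Over the gene body Activin had 102 tags, DMSO 124 and SB 77, against 52, 72 and 50 in the inputs. Per kb and 10000000 tags these were 17.9, 22.2 and 18.2, lower than in the promoter in each library. Activin over DMSO was 0.806 (0.614 to 1.06), SB over DMSO 0.82 (0.609 to 1.098) and Activin over SB 0.983 (0.724 to 1.34), with exact binomial adjusted p of 0.483 to 1. In DMSO the highest point was 23 overlapping tags at 3519 bp downstream of the start, in intron 3, where the bin from 3500 to 3600 bp held 14 DMSO tags, 4 Activin tags and 1 SB tag. This bin was singled out after its values were seen.

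By part of the gene, exon 1 held 20, 30 and 16 ChIP tags in Activin, DMSO and SB, intron 1 held 64, 70 and 51, and intron 3 held 13, 25 and 7. Exon 5 held only 1, 5 and 2. There, 22.5% of 35-mers were unique in the assembly, compared with 96.4% in exon 1. Processed pseudogenes of Pou5f1 are annotated in the mouse genome, and a tag that matches several places need not appear here. The low tag number of exon 5 can therefore not be read as a level of pSmad2.

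Against the input, 11 of the 12 tests at Pou5f1 were called by the one-sided exact binomial test, where 4.85% of windows of all coding genes were called in Activin, 7.34% in DMSO and 7.04% in SB. These shares differed by window: 11.4%, 17.5% and 14.0% of gene bodies were called, and 1.69% to 5.13% of the windows of 1 kb. In Activin the ratios of ChIP to input were 3.10 (1.78 to 5.67) in the distal enhancer, 2.58 (1.41 to 4.98) in the proximal enhancer, 2.84 (1.72 to 4.88) in the promoter and 1.72 (1.22 to 2.45) in the gene body. In DMSO they were 2.56 (1.54 to 4.39), 2.84 (1.61 to 5.27), 2.73 (1.63 to 4.73) and 1.70 (1.26 to 2.305). The adjusted p of these 8 exact tests lay between 0.000331 and 0.0195. With both Activin and DMSO, all 4 windows thus held more ChIP than input tags.

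In SB the distal enhancer was the exception, with a ratio of 1.20 (0.593 to 2.47) and an exact binomial adjusted p of 0.871. The interval still allows an enrichment of up to 2.47-fold there. The proximal enhancer reached 5.21 (2.13 to 15.3, exact binomial adjusted p = 0.000786), on 6 input tags. Against the 3 inputs pooled, added after the values were seen, the SB proximal enhancer was 2.72 (1.62 to 4.53) and the SB distal enhancer 1.21 (0.678 to 2.07). The SB promoter, at 2.10 (1.22 to 3.75), and gene body, at 1.66 (1.15 to 2.42), passed with adjusted p of 0.0466 and 0.0454 in the exact test. The promoter call was lost with 1 tag per position and strand, where the adjusted p of the exact test was 0.0566.

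The inputs themselves gave no called difference in any window of Pou5f1 (exact binomial adjusted p of 0.602 to 1). In the proximal enhancer the SB input was 0.426 times the DMSO input (0.138 to 1.13, exact p = 0.0918 before adjustment, 0.739 after).

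**Figure D3:**
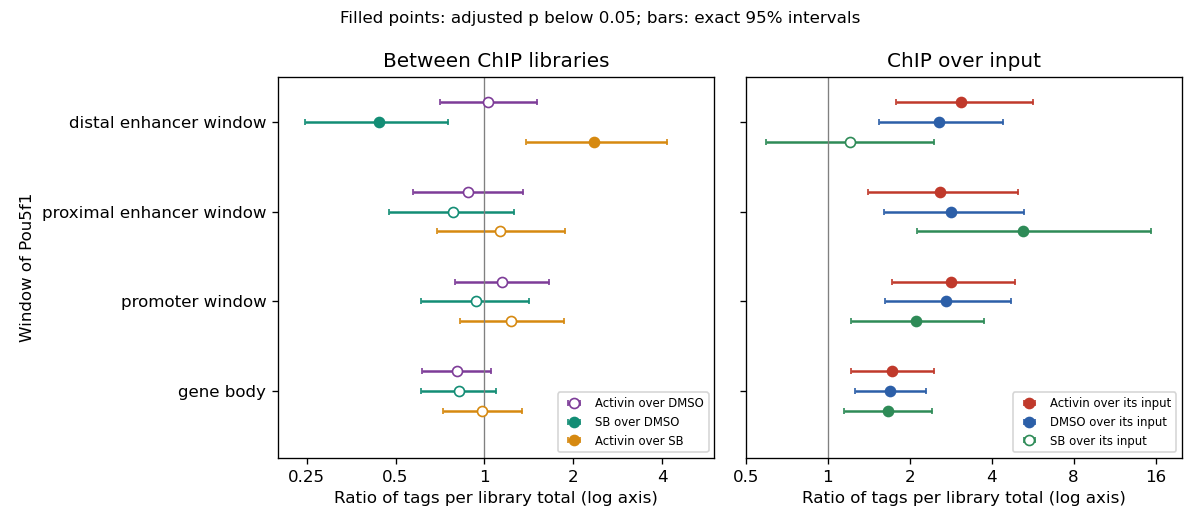
Ratios of tags per library total in the 4 windows of Pou5f1 on a log axis, between ChIP libraries (left) and of each ChIP to its input (right), with exact 95% intervals. Filled points passed the exact binomial test at an adjusted p of 0.05 and open points did not, and on the left only the distal enhancer has filled points, for SB over DMSO at 0.44 and Activin over SB at 2.34.

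Over the whole locus, tiles above the input lay only around Pou5f1 and Tcf19. Of tiles of 1 kb, 3 were called above input for Activin and 1 each for DMSO and SB, of 78, 76 and 74 tested, whereas in the genome 0.226%, 0.413% and 0.421% of tiles were called. The tile from 1981 to 982 bp upstream, on both sides of the boundary between the distal and proximal enhancer windows, was called in all 3 treatments (53, 56 and 29 ChIP tags against 15, 15 and 7). Activin alone passed in the next tile, which runs to 18 bp past the start site (60 ChIP and 17 input tags, exact binomial adjusted p = 0.00544). The same tile had 48 and 19 tags in DMSO (exact adjusted p = 0.0626) and 30 and 16 in SB, and the difference between treatments in this tile was not tested. A tile boundary cuts the distal enhancer peak, so that no tile holds all of it.

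On the outer sides of the locus each ratio of ChIP to input had an interval that included 1. The 47400 bp upstream of the distal enhancer held 269, 279 and 199 ChIP tags and had ratios to the input of 1.01 (0.848 to 1.21) in Activin, 1.04 (0.875 to 1.23) in DMSO and 0.909 (0.749 to 1.102) in SB. There 56.1% of 35-mers were unique, since this side borders the H2-Q genes of the major histocompatibility complex, which are close copies of each other. The 43952 bp beyond Tcf19 had ratios of 1.00 (0.881 to 1.14), 0.923 (0.813 to 1.05) and 0.961 (0.843 to 1.096). Between ChIP libraries, SB over DMSO was 0.941 (0.781 to 1.13) on the upstream side and 1.21 (1.06 to 1.38) beyond Tcf19, and was 0.761 (0.625 to 0.924) from the distal enhancer to the end of Pou5f1. From the distal enhancer to the end of Pou5f1 the ratios of ChIP to input were 2.29 (1.82 to 2.90) in Activin, 2.15 (1.75 to 2.67) in DMSO and 1.90 (1.47 to 2.48) in SB.

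The deposited peak lists place sites in the locus in Activin and DMSO. The Activin list had a site 2034 bp upstream with 146 listed tags, rank 165 of 5094 by tags, and others 3094 bp downstream with 36 and 8158 bp downstream, in Tcf19, with 113. The DMSO list had 4 positions, at 1696 and 628 bp upstream and 651 and 8450 bp downstream, with 34, 40, 52 and 68 tags. None of the positions in the SB list fell between the distal enhancer and Tcf19, and its only entry in the locus, with 21 tags, was 51919 bp downstream. The first Activin position lay near the highest Activin pileup at 2029 bp upstream, whereas no DMSO position lay at the highest DMSO pileup at 2000 bp. How the DMSO and SB positions relate to summits is not stated, so this does not show that no DMSO peak was listed there.

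Tcf19, which encodes a nuclear protein with forkhead-associated and PHD finger domains, reads towards Pou5f1 from a start site 10787 bp downstream of that of Pou5f1. Its gene body held 143 Activin ChIP tags, 134 of DMSO and 97 of SB, and the inputs 50, 62 and 60. The ratios to input were 2.51 (1.81 to 3.54), 2.13 (1.57 to 2.93) and 1.74 (1.25 to 2.45), with exact binomial adjusted p of 2.78e-07, 1.13e-05 and 0.00869. Between treatments it showed no called difference, with Activin over DMSO at 1.05 (0.82 to 1.33), SB over DMSO at 0.956 (0.728 to 1.25) and Activin over SB at 1.09 (0.84 to 1.43), and exact binomial adjusted p of 0.837 to 0.971.

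Within Tcf19, intron 3, its longest part, held 67, 61 and 34 ChIP tags against 21, 26 and 20 in the inputs. Intron 2 held 41, 25 and 19 against 12, 10 and 11. Per kb and 10000000 tags, intron 3 had 39.5, 36.7 and 27.0 in the order Activin, DMSO, SB, while exon 4, at the 3′ end, had 15.2, 41.3 and 34.1. The highest points were 21 tags at 7991 bp, 15 at 7489 bp and 15 at 6844 bp downstream of the Pou5f1 start, so that each library peaked at a different place. The promoter window of Tcf19 held 14, 22 and 19 ChIP tags against 13, 24 and 13, and neither it nor the 2 windows upstream of it passed above the input in any treatment. The promoter window has fewer tags than the gene body, and the difference between them was not tested. Between the 3′ ends of Pou5f1 and Tcf19 lie 1957 bp with 30, 29 and 23 ChIP tags and 9, 23 and 11 input tags. There the ratios to input were 2.93 (1.35 to 7.01) in Activin, 1.24 (0.695 to 2.25) in DMSO and 2.25 (1.06 to 5.12) in SB, with no test.

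**Figure D4:**
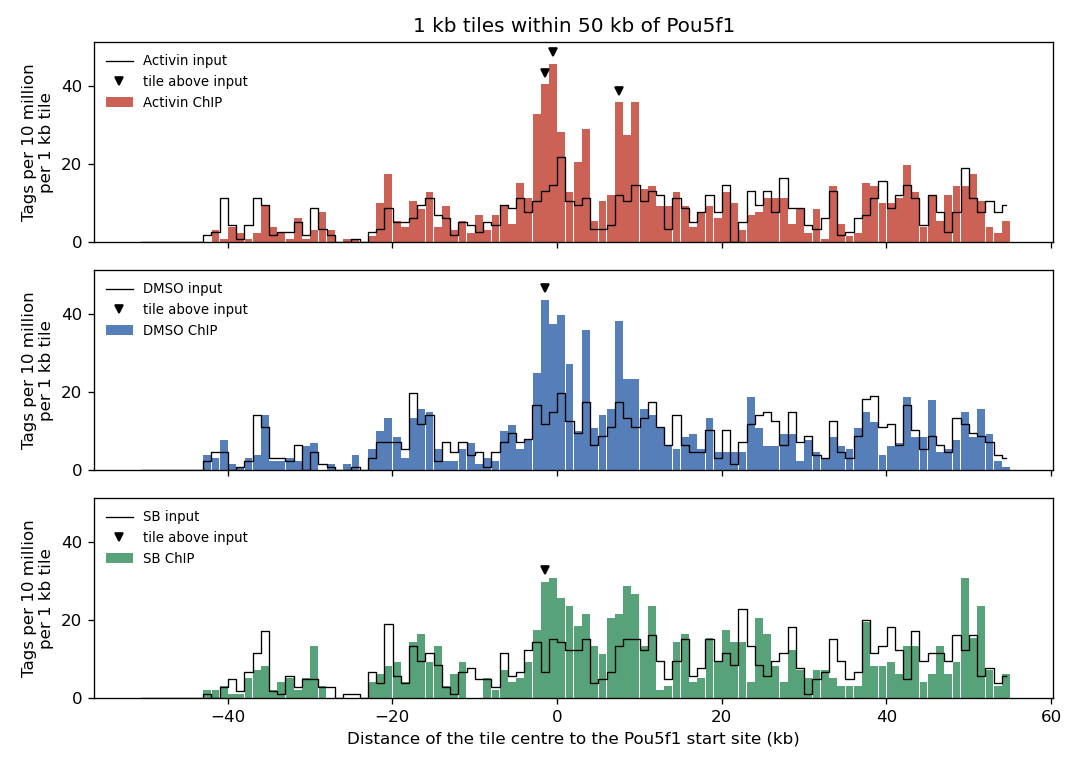
Tags per 10000000 tags of the library in each 1 kb tile by distance of the tile to the Pou5f1 start site in kb, with ChIP as bars and input as a black line, 1 library each. Arrowheads mark the tiles called above input: 3 in Activin, 1 in DMSO and 1 in SB, all between the distal enhancer and Tcf19.

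Of the other coding genes of the locus, H2-Q10, a class I histocompatibility gene, Psors1c2 and Cdsn, the gene of corneodesmosin in the skin, had no window above the input. Cchcr1, which encodes a coiled-coil protein, had its distal window above the input in Activin (40 against 13 tags, exact binomial adjusted p = 0.0195), and this window lies inside Tcf19. Between treatments the only called window was 1600 to 600 bp upstream of Cdsn, with 3 tags in SB and 23 in DMSO (ratio 0.172, 0.0331 to 0.57, exact binomial adjusted p = 0.0347), where the DMSO ChIP itself was not called above its input.

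Set against the same window of all coding genes, the distal enhancer of Pou5f1 lay towards the end of the range and not at it. Its log2 SB over DMSO, with 0.5 tags added, was -1.16, and 12.3% of 11765 tested genes were at or below it. Its log2 Activin over SB was 1.20, and 89.5% of 12036 genes were at or below that. The log2 ratio of ChIP to input in Activin was 1.602, with 95.7% of genes at or below. A set of 416 genes had at least 30 ChIP tags in that window and a call above input in Activin or DMSO. Of these, 13.2% had a log2 SB over DMSO at or below that of Pou5f1, and 18 were called lower and 4 higher in SB than in DMSO. A call in SB alone did not admit a gene, so the choice of the set itself favours a low SB over DMSO. Over all 11765 tested distal windows, 69 were called lower and 112 higher. In Activin against SB, 12 of the 416 were called higher in Activin and 21 lower.

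The 5 genes whose distal windows were most like that of Pou5f1, by distance in the pair of log2 ratios over the 3 ChIP libraries, were Mtss1l, Krtcap3, Zmym5, Tnfsf13 and Eif2c1. Mtss1l was the closest, at a distance of 0.0841, with 53 Activin, 51 DMSO and 16 SB tags. Eif2c1, an Argonaute gene, had 69, 79 and 27 tags. In all, 21 of the 416 genes lay within 0.5.

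Among 15 other genes of pluripotency factors, none had a called difference between treatments in the distal window, where 14 were tested in Activin against DMSO and 13 in each of the other pairs, and none was called above its input there. Over the distal windows of all coding genes the shares called were 0.79%, 1.54% and 1.74% between ChIP libraries and 1.69% to 2.54% above input, so counts of 0 are near the background. Nanog, a homeodomain factor of the same network, held 11, 16 and 7 ChIP tags against 27, 29 and 18 in the inputs. Sox2, the partner of Oct4 on DNA, held 12, 12 and 10 against 3, 7 and 10. Outside the distal window, Sox2 was called above input in its promoter and gene body in all 3 treatments, and Nanog in its gene body. Of the 15, gene bodies were called in 8 in Activin, 8 in DMSO and 10 in SB. Over all genes the shares were 11.4%, 17.5% and 14.0%. Promoters were called in 2 of 14, 3 of 15 and 4 of 14 tested, with 2.37%, 3.39% and 5.13% over all genes. The distal window is a known enhancer in Pou5f1 and not in each of these genes. Among 15 genes of the Nodal/Activin pathway, 2 of 14 tested were called higher in Activin than in SB in the distal window, where 210 of 12036 genes were called, 72 of them higher, and none of 13 or 14 in the other pairs. These were Tdgf1, the Nodal coreceptor, with 51, 36 and 14 tags against 12, 14 and 6 in the inputs, and Nodal. Nodal held 41, 24 and 10 against 20, 14 and 28. Tdgf1 was called above its input there in Activin and DMSO, and Nodal was not called in any treatment. In the distal window the median log2 ratio of Activin over SB was 0.51 over the pathway genes, 0.19 over the pluripotency genes and 0.01 over all genes. In the proximal, promoter and gene body windows it was -0.07, -0.38 and 0.15 over the pathway genes. Over all genes it was -0.04, -0.49 and -0.02 there.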

How the data were processed

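The authors deposited, for each library, the aligned 35 bp tags as positions on mm9 (per the submitters' processing notes), and for each treatment a MACS peak list that gives each peak's position and its count of tags. The aligner is not given in the sources used here. Tags were counted in windows after moving each to the middle of a 200 bp fragment, all tags kept, and scaled by the library total. Gene models were those of GENCODE on NCBIM37, with 1 transcript per gene, that with the longest coding sequence, and 22342 genes.

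ChIP libraries were compared by two-sided, and ChIP with input by one-sided, exact binomial tests given the library totals, adjusted by the Benjamini-Hochberg method over the 4 windows of all coding genes with at least 10 tags, at a threshold of 0.05. Tiles of 1 kb were tested in the same way over the genome. Intervals are 95% Clopper-Pearson for ratios and exact Poisson for levels. Alternatives covered repeated tags, totals outside enriched tiles, GC content, both together, fragment length, the ratio of ChIP over input and windows moved by 200 bp. Uniqueness was counted from exact 35-mers of the assembly. Motifs were searched on both strands. The text names the coding genes of the locus, the 5 with the most similar distal window, and the genes called in 2 lists. Nanog and Sox2 were named after their values were seen. The members and lists were chosen with earlier results of these data known. Python 3.11.15, NumPy 2.4.6, SciPy 1.17.1, pandas 2.3.3 and matplotlib 3.10.9 were used. On simulated windows drawn from the real means, the SB against DMSO test recovered 43.7% of 71 windows changed 4-fold and 13.1% of 61 changed 2-fold. Among 60176 tested, 1 unchanged window was called. The simulated counts had counting error only, without repeated tags or GC differences, so that number is not the rate of false calls in the libraries. Between the real inputs, 36 of 63993 windows were called in SB against DMSO and 200 of 62441 in Activin against SB.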

Additional observations from a re-analysis of the deposited data

How the results depend on the processing

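No paired analysis was possible because each treatment had 1 ChIP and 1 input library. Between ChIP libraries, 76 of 96 recomputed values kept their direction and their side of the threshold. The distal enhancer call of SB against DMSO (0.44) was lost with 1 tag per position and strand (0.436), totals outside called tiles (0.451), GC scaling (0.41), the last with 1 tag per position and strand (0.394), a fragment of 100 bp (0.478), windows 200 bp further downstream (0.587) or upstream (0.473), and ChIP over input (0.471). That of Activin against SB was lost in the downstream windows (1.79) and with ChIP over input (2.57). The cause was not tested. The ratio of ChIP over input adds the counting error of the inputs. Uncalled ratios crossed 1 as follows. Activin against DMSO came to 0.995 in the distal enhancer with GC scaling, 1.04 in the proximal enhancer with downstream windows, 0.98 in the promoter with windows moved either way, and 1.01 in the gene body with ChIP over input. With ChIP over input, the proximal enhancer gave 1.83 for SB against DMSO and 0.494 for Activin against SB, on 6 SB input tags. Activin against SB in the gene body was 1.02 with GC scaling, 1.02 with upstream windows and 1.04 with ChIP over input. Above input, 69 of 72 values kept their side of the threshold, the uncalled SB distal enhancer among them. For the values against the 3 inputs pooled, that side was read from the unadjusted interval, with no adjusted p. The SB promoter lost its call with 1 tag per position and strand (2.09), a fragment of 100 bp (2.01) and upstream windows (1.93). At a threshold of 0.001 the tiles called were 0 in Activin and 0 in SB, and with 1 tag per position and strand 0 in SB. The distal summit moved by less than 100 bp in every setting. Depth limits these values, since a window of 1 kb held 6 to 68 tags.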
